A study of Oryza sativa Japonica Group with 12 samples.

Results

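The genes described here encode proteins of the cytosolic ribosome, translation initiation factors and subunits of the proteasome in rice (Oryza sativa ssp. Japonica cv. Taichung 65). They were chosen by symbol: every gene whose symbol or synonym in the RefSeq gene table begins, in this case of letters, with those used for these proteins (RPL, RPS, 60SP, eIF, EIF, TIF, PAA to PAG, PBA to PBG, RPT or RPN). All but 60SP had to be followed by a digit (or a hyphen after eIF, EIF or TIF), and the species prefix Os was allowed for the initiation factor and proteasome letters. The rule gave 54 genes, of which 49 had a probe set of their own on the array, out of 24160 genes in all. The other 5 were not analysed here. The 49 members comprise 13 proteins of the large ribosomal subunit, 10 of the small subunit, 7 genes with initiation factor symbols, 7 alpha and 4 beta subunits of the proteasome core, and 3 ATPases and 3 other subunits of its regulatory particle. The remaining 2, RPN1A and RPN2, match by their letters, but their synonyms (OST1A, RPN-IA and RPN-II) name ribophorins of the oligosaccharyltransferase, so they are kept as a class of their own. Few rice genes carry such a symbol, and each class is therefore a part of its family.

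The study microdissected crown root (CR) primordia by laser from sections of rice stem bases 8 days after sowing. CR primordia at an early, an intermediate and a late stage, which lie in successive rings from the top of the stem base downward, were set against stem cortex cut from the same sections. All plants were untreated Taichung 65 wild type, and no genotype or treatment differed between groups. Each group was measured on 3 arrays, each with RNA from a pool of 2 stem bases out of 6 in all, and arrays with the same repetition number came from the same plants. RNA in nanogram amounts was amplified before hybridization to Gene Rice 1.1 ST arrays, and the deposited values are log2 signals per probe set, already normalized, in which a difference of 1 is a doubling.

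Ribosomes are built from rRNA and about a single copy each of many proteins, and growing plant cells make these proteins in large amounts. Initiation factors bring the ribosome to the start codon: the cap-binding protein eIF4E, the scaffold eIF4G and the RNA helicase eIF4A form the complex that recognises the mRNA. The proteasome degrades proteins that carry ubiquitin chains, in a core of stacked alpha and beta rings that is opened and fed by a regulatory particle of ATPases and lid subunits. In roots, the activity of these genes is known to be high in meristems, where cells grow and divide.

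A pair of facts about the arrays touches every result below. First, cortex repetitions 2 and 3 had lower bright values than any other array. The 98th percentile of the log2 signal was 6.94 to 7.22 on the 9 primordium arrays, against 6.80, 6.25 and 6.29 on cortex repetitions 1, 2 and 3, while the array medians lay between 2.86 and 3.00 throughout. Because many members are bright, their differences from cortex are given against all 3 cortex arrays, against cortex repetition 1 alone and beside other genes of like brightness. Second, the tissue labels were checked against a short list of markers and matched it in part. Of 4 markers of primordia, 2, 1 and 0 rose at the early, intermediate and late stage. The list held no PLETHORA (PLT) transcription factor gene, although the paper reports such genes as upregulated in CR primordia, some of them at every stage. The late count of 0 thus rests on these 4 genes and is no test of the late labels. The phytosulfokine precursor PSK1 had a mean of 7.34, 6.64 and 5.22 in early, intermediate and late primordia, against 3.75 in cortex, and the 4 chlorophyll-binding and Rubisco genes averaged 2.20 to 2.55 on the primordium arrays against 3.71 to 5.27 on the cortex arrays. OsSCR1, a GRAS factor of the root ground tissue, differed from cortex by 1.58 at the early stage, where it rose, and by 0.38 and 0.39 at the intermediate and late stage. OsSHR1 (1.32, 0.71 and 0.02) and QHB, a WOX gene of the root quiescent centre (0.36, 0.04 and -0.44), were called at no stage.

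Most members had higher signals in CR primordia than in cortex, few passed the test, and none was called lower. A gene is said to have risen or fallen where limma, fitted to all 12 arrays, gave a Benjamini-Hochberg adjusted p under 0.05 and a fold change of at least 1.5. By this rule 5 of the 49 members rose in early primordia (1.70% of all genes), 12 in intermediate primordia (3.21%) and 7 in late primordia (1.61%). The count of members that fell was 0 at each stage, where 0.952%, 2.51% and 1.64% of all genes fell at the early, intermediate and late stage. At an unadjusted p under 0.05, 29, 30 and 28 members were higher and 0 were lower. In either direction, 5098, 6838 and 5907 of the 24160 genes had such a p. In all, 14 members rose in at least 1 stage, 3 of them (RPS26, RPS27AB and OsPAE1) in all 3 stages, and 35 in none. In such dissected tissue, fewer cells of a type and less RNA per cell cannot be told apart.

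At the thresholds that the study's methods name, an unadjusted p below 0.01 with a change of at least 1.5-fold, 14, 18 and 20 members were higher in early, intermediate and late primordia, where 4.64%, 5.68% and 4.42% of all genes were. None was lower at these thresholds, against 2.38%, 4.11% and 3.40% of all genes. The median log2 change of the 49 members was 0.48, 0.57 and 0.55 at the early, intermediate and late stage, with 47, 47 and 46 members above 0. The median of all genes was -0.03, -0.03 and -0.02, with 45.1%, 46.4% and 47.2% of them above 0. Every array of the stage lay above every cortex array for 26, 29 and 27 members, as it did for 12.4%, 16.1% and 13.2% of all genes. For 19 members all 9 primordium arrays lay above all 3 cortex arrays (5.55% of all genes), and for 0 members below them (4.98% of all genes). The counts of calls rest on the cortex arrays used: without cortex repetition 2 they were 2, 2 and 3 members (0.389%, 0.377% and 0.232% of all genes), without cortex repetition 3 they were 2, 3 and 3 (0.803%, 0.741% and 0.310%), and without cortex repetition 1 they were 23, 25 and 21 (5.51%, 7.87% and 6.40%).

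**Figure D1:**
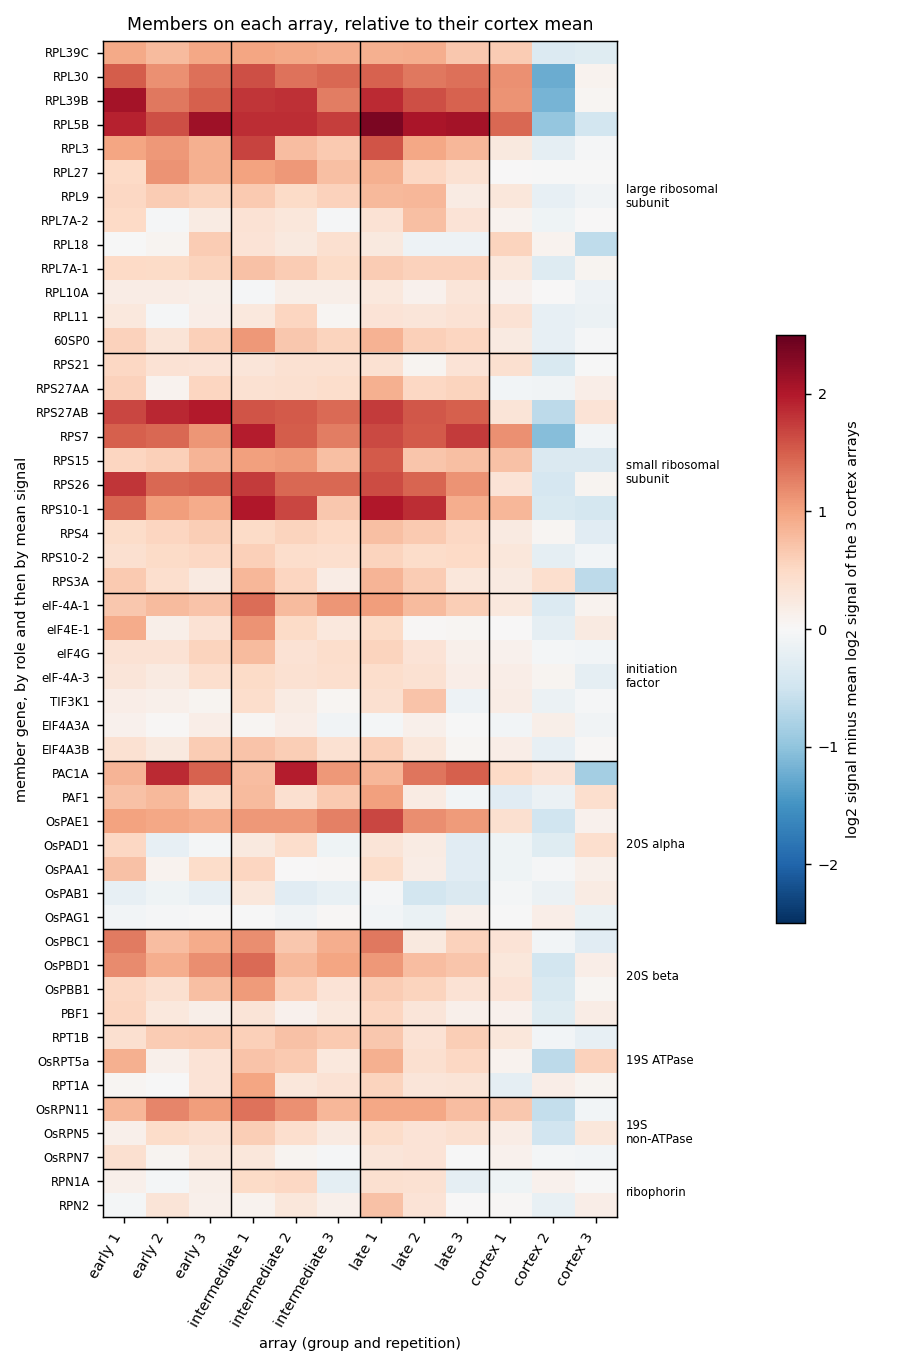
Log2 signal of each of the 49 members (rows, by role and then by mean signal) on each of the 12 arrays (columns), minus the mean of that member's 3 cortex arrays. Most rows are red across the 9 primordium arrays, and the cortex columns run from mostly red in repetition 1 to blue in repetition 2. Repetition 2 of cortex is the lowest of all 12 arrays for 30 members (15.8% of all genes).

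Proteins of the large subunit were higher than cortex in nearly every case, and 1, 5 and 1 of 13 rose at the early, intermediate and late stage. Their median log2 change was 0.57, 0.76 and 0.62. RPL5B, which binds the small rRNA of this subunit, had the largest change of any member: its signals were 8.99, 8.68 and 9.19 in early, 8.93, 8.92 and 8.79 in intermediate and 9.42, 9.11 and 9.16 in late CR primordia, against 8.50, 6.11 and 6.61 in cortex. All 9 primordium arrays lay above the cortex arrays, but cortex repetition 1 was close to them and the other 2 were far below. The log2 change was 1.88 (SE 0.47, adjusted p = 0.0601) at the early, 1.81 (adjusted p = 0.0492) at the intermediate and 2.16 (adjusted p = 0.0409) at the late stage, and against cortex repetition 1 alone it was 0.45, 0.38 and 0.73.

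RPL27 showed a tighter pattern. Its signals were 6.32, 6.94 and 6.70 in early, 6.82, 6.90 and 6.56 in intermediate and 6.69, 6.32 and 6.19 in late CR primordia, against 5.83, 5.81 and 5.80 in cortex. The cortex arrays were nearly equal, and RPL27 rose by 0.84 (SE 0.18, adjusted p = 0.0379) at the early and 0.95 (adjusted p = 0.0221) at the intermediate stage, with 0.59 (adjusted p = 0.0895) at the late stage. With the repetition number in the fit as a term (the replicate block) the early change gave an adjusted p of 0.0507.

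RPL39C and RPL39B encode a small basic protein of the peptide exit tunnel, and RPL39C was the brightest member of the large subunit. Its signals were 11.11, 10.96 and 11.13 in early, 11.14, 11.10 and 11.07 in intermediate and 11.05, 11.07 and 10.83 in late CR primordia, against 10.80, 9.83 and 9.85 in cortex. The primordium arrays were nearly flat near the top of the scale. RPL39C rose at the intermediate stage alone (log2 change 0.95, adjusted p = 0.0383), and RPL39B, at 1.63, 1.63 and 1.65, did not pass (adjusted p = 0.0826, 0.0581 and 0.0713, and 0.0435 at the intermediate stage with the replicate block). RPL30, the next brightest, had 10.86, 10.49 and 10.74 in early, 10.97, 10.71 and 10.79 in intermediate and 10.82, 10.66 and 10.74 in late CR primordia, against 10.49, 8.12 and 9.45 in cortex. Its cortex arrays spanned more than its whole difference from the primordia, and none of the changes of 1.34, 1.47 and 1.39 passed. The stalk protein 60SP0, which helps elongation factors to bind, was dim, with signals of 2.64 to 3.40 on the primordium arrays against 2.12 to 2.55 in cortex, and rose at the intermediate stage (0.76, adjusted p = 0.0339), and at the late stage with the replicate block alone (adjusted p = 0.0362). RPL7A-1 also rose there (0.62, adjusted p = 0.0370). RPL3, of the peptidyl transferase centre, had changes of 0.98, 1.04 and 1.13 with adjusted p of 0.0815, 0.0506 and 0.0521, and passed at each stage with the replicate block (adjusted p = 0.0394, 0.0274 and 0.0302). RPL10A (0.17, 0.09 and 0.23) and RPL18 (0.23, 0.33 and -0.01) had small changes and did not pass.

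Of the small subunit, 2, 2 and 4 of 10 members rose, with a median log2 change of 0.60, 0.73 and 0.82. RPS26, which lies where mRNA leaves the ribosome, had 7.51, 7.16 and 7.20 in early, 7.48, 7.15 and 7.16 in intermediate and 7.36, 7.18 and 6.85 in late CR primordia, against 6.08, 5.30 and 5.80 in cortex. Every primordium array lay above every cortex array. RPS26 rose by 1.56 (SE 0.21, adjusted p = 0.00963), 1.54 (adjusted p = 0.00868) and 1.40 (adjusted p = 0.0124), which are fold changes of 2.96, 2.90 and 2.64. Against cortex repetition 1 alone the changes were 1.21, 1.19 and 1.05 with adjusted p of 0.0892, 0.0944 and 0.153.

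RPS27AB and RPS27AA each encode ubiquitin fused to a protein of the small subunit, so that both a ribosomal protein and ubiquitin come from their mRNA. RPS27AB had 9.18, 9.39 and 9.49 in early, 9.08, 9.03 and 8.93 in intermediate and 9.25, 9.05 and 9.00 in late CR primordia, against 7.83, 6.85 and 7.84 in cortex. The lowest primordium array was more than 1 log2 unit above the highest cortex array. RPS27AB rose by 1.85 (SE 0.23, adjusted p = 0.00877), 1.51 (adjusted p = 0.0136) and 1.60 (adjusted p = 0.0113). It was also the sole member called against cortex repetition 1 alone, by 1.53, 1.19 and 1.28 (adjusted p = 0.00938, 0.0267 and 0.0205). RPS27AA had 9.10, 8.62 and 9.06 in early, 8.91, 8.92 and 8.97 in intermediate and 9.43, 9.04 and 9.10 in late CR primordia, against 8.46, 8.44 and 8.70 in cortex. It rose at the late stage alone, by 0.66 (adjusted p = 0.0492, and 0.0507 with the replicate block), and after quantile normalization or cyclic loess its late change was below 0, at -0.43 and -0.35.

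RPS4 rose at the late stage (0.64, SE 0.13, adjusted p = 0.0369), with 0.53 (adjusted p = 0.0620) at the early and 0.51 (adjusted p = 0.0498) at the intermediate stage, where its fold change of 1.43 was under the threshold. RPS7 (1.34, 1.58 and 1.65) and RPS10-1 (1.15, 1.45 and 1.59) did not pass, with cortex arrays that spread from 6.11 to 8.30 and from 4.58 to 5.84. With the replicate block RPS7 passed at the intermediate stage (adjusted p = 0.0452) and RPS10-1 at each stage (adjusted p = 0.0398, 0.0193 and 0.0182). RPS21 was the brightest member, with signals of 11.14 to 11.58 in primordia and 10.68 to 11.47 in cortex, and its groups overlapped. Log2 changes of 0.41, 0.36 and 0.26 were measured for it.

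Among the 7 genes with initiation factor symbols, which include EIF4A3A and EIF4A3B of the exon junction complex, 0, 1 and 1 rose, and all 7 had mean signals above cortex at each stage, with a median log2 change of 0.42, 0.53 and 0.32. The helicase eIF-4A-1 had 5.55, 5.66 and 5.59 in early, 6.27, 5.67 and 5.97 in intermediate and 5.91, 5.67 and 5.49 in late CR primordia, against 5.13, 4.53 and 4.95 in cortex. Its groups did not overlap. It rose at the intermediate (1.1, SE 0.19, adjusted p = 0.0194) and the late stage (0.82, adjusted p = 0.0474), with 0.73 at the early stage (adjusted p = 0.0696). The scaffold eIF4G, of which all 9 primordium arrays also lay above cortex, differed from it by 0.43, 0.53 and 0.34, and the cap-binding eIF4E-1 by 0.48, 0.62 and 0.19, without passing. EIF4A3A, the helicase that anchors the exon junction complex, differed by 0.10, 0.04 and 0.03 on a probe set at 2.68 to 2.94 across all 12 arrays.

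In the core of the proteasome, 2, 2 and 1 of 11 subunits rose at the early, intermediate and late stage. The alpha subunit OsPAE1 had 4.53, 4.49 and 4.45 in early, 4.61, 4.61 and 4.79 in intermediate and 5.20, 4.70 and 4.60 in late CR primordia, against 3.93, 3.04 and 3.64 in cortex. No primordium array reached down to cortex. It rose by 0.96 (SE 0.22, adjusted p = 0.0485), 1.14 (adjusted p = 0.0232) and 1.30 (adjusted p = 0.0197). The beta subunit OsPBD1 had 6.83, 6.55 and 6.82 in early, 7.07, 6.47 and 6.63 in intermediate and 6.74, 6.42 and 6.35 in late CR primordia, against 5.94, 5.19 and 5.82 in cortex. It rose at the early (1.08, SE 0.22, adjusted p = 0.0318) and the intermediate stage (1.07, adjusted p = 0.0264), with 0.85 at the late stage (adjusted p = 0.0599, and 0.0304 with the replicate block).

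The alpha subunit PAC1A had the largest early change of the proteasome (1.40) with wide spreads, 6.08, 7.11 and 6.72 in early primordia against 5.74, 5.58 and 4.39 in cortex, and did not pass at any stage. PAF1, the next brightest alpha subunit, had changes of 0.66, 0.61 and 0.39 and did not pass (adjusted p = 0.205, 0.177 and 0.405). After quantile normalization its changes were 0.04, -0.08 and -0.25. OsPAB1 (-0.18, -0.05 and -0.28) and OsPAG1 (-0.04, -0.03 and -0.03) had changes below 0, on probe sets at 2.41 to 3.16, and OsPAD1 (0.09, 0.19 and 0.08) and OsPAA1 (0.43, 0.20 and 0.12) did not pass either. The brightest core subunit was the beta subunit OsPBC1, with 7.80 to 8.88 in primordia against 7.29 to 7.91 in cortex and changes of 1.01, 0.91 and 0.71 (adjusted p = 0.0762, 0.0695 and 0.154). With the replicate block OsPBC1 passed at the early and the intermediate stage (adjusted p = 0.0199 and 0.0219).

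The regulatory particle had 2 calls among 6 subunits, both at the intermediate stage. OsRPN11, the subunit that removes ubiquitin chains from substrates, had 6.61, 6.99 and 6.83 in early, 7.13, 6.93 and 6.62 in intermediate and 6.76, 6.75 and 6.54 in late CR primordia, against 6.45, 5.19 and 5.71 in cortex. As with RPL5B, cortex repetition 1 stood close to the primordia. The changes were 1.03, 1.11 and 0.90 (adjusted p = 0.0693, 0.0419 and 0.0865), and 0.36, 0.44 and 0.23 against cortex repetition 1 alone. The ATPase RPT1B rose by 0.66 (adjusted p = 0.0334) at the intermediate stage, and the other ATPases OsRPT5a and RPT1A and the lid subunits OsRPN5 and OsRPN7 did not pass, with changes between 0.11 and 0.61. The 2 ribophorins differed from cortex by 0.08, 0.25 and 0.18 (RPN1A) and by 0.13, 0.17 and 0.36 (RPN2), with groups that overlapped.

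**Figure D2:**
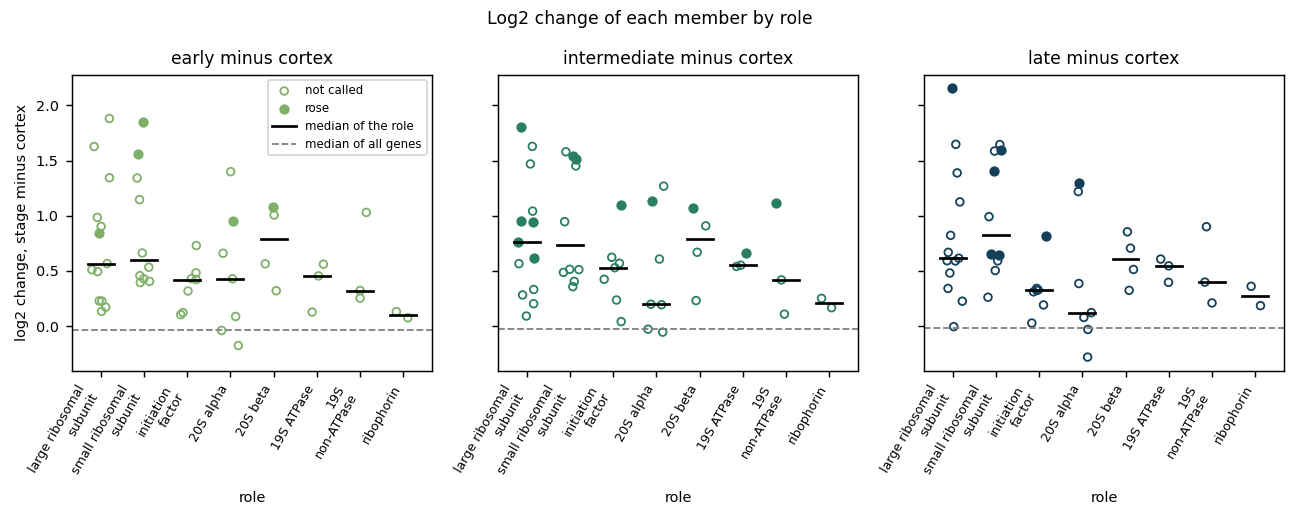
Log2 change against cortex (vertical axis) of each member by role, at the early, intermediate and late stage. Filled points rose, open points were not called, black bars are the median of the role and the dashed line is the median of all genes. Ribosomal proteins spread from about 0 to 2.16, while the 20S alpha subunits include the 2 members below 0 at every stage.

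**Figure D3:**
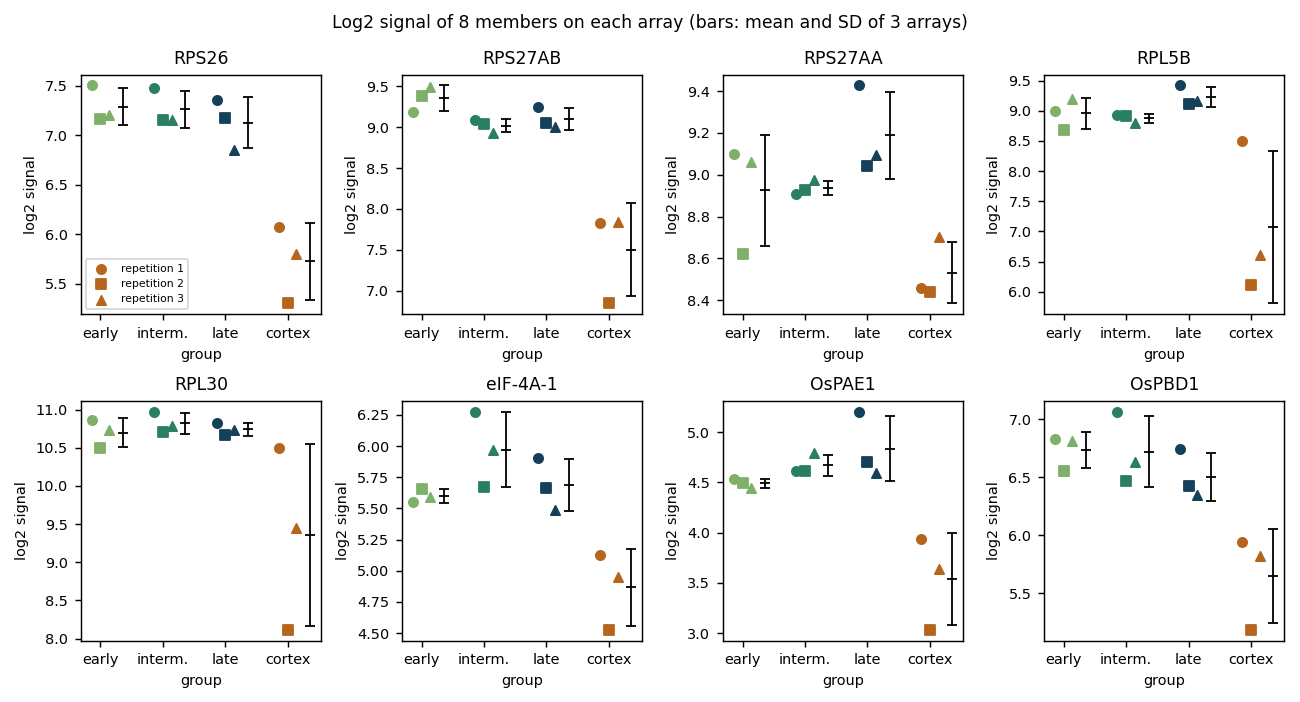
Log2 signal (vertical axis, scaled per panel) of 8 members on each array of the early, intermediate and late stage and of cortex, with a symbol per repetition and the mean and SD of 3 arrays in black. RPS27AB and OsPAE1 have every primordium array clear of cortex, whereas RPL5B and RPL30 have cortex repetition 1 near the primordia and repetition 2 far below.

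The change of a gene went with its brightness, among members and among all genes. Over the 49 members, Spearman's correlation between the mean log2 signal on the 12 arrays and the log2 change was 0.757, 0.667 and 0.701 at the early, intermediate and late stage, and over all 24160 genes it was 0.361, 0.388 and 0.366. These are correlations across genes that share the 12 arrays, given as a description. Part of each can be built in, since 9 of the 12 arrays in the mean signal are primordium arrays. To set members beside genes of like brightness, genes were put in bands of 1 log2 unit by this same mean signal. In the band from 6 to 7 the 10 members had a median change of 0.94, 1.01 and 0.88, and the 507 other genes 0.64, 0.74 and 0.69. In the band from 8 upward the 9 members had 1.34, 1.47 and 1.39, and the 169 other genes 0.97, 1.1 and 1.00. This band has no upper limit. RPS21, its brightest member with a mean of 11.32, ranked above nearly all other genes, so the genes compared there differ in brightness. Other genes of that band were called, in either direction, in 16.6%, 38.5% and 20.7% of cases. Of the 9 members 1, 3 and 3 were called, all of them higher.

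Set against the median of the other genes in its own band, a member was higher in 41, 37 and 36 of 49 cases at the early, intermediate and late stage. The median excess was 0.23, 0.22 and 0.28 log2 units, with a range over members and stages from -0.74 to 1.16, beside median changes of 0.48 to 0.57 against cortex. By role it was 0.23, 0.20 and 0.32 for ribosomal proteins, 0.26, 0.22 and 0.21 for the proteasome and 0.27, 0.33 and 0.28 for initiation factors. Against cortex repetition 1 alone it was 0.07, 0.01 and 0.20 for ribosomal proteins, 0.17, 0.18 and 0.10 for the proteasome and 0.22, 0.27 and 0.10 for initiation factors. The excess does not remove differences in brightness within the open top band, and no test was made of it.

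Against cortex repetition 1 alone, the median change of the members was 0.26, 0.35 and 0.29, and 43, 42 and 44 of 49 were above 0. With this array as the sole cortex array, limma called 1 member at each stage, RPS27AB, and 0.0869%, 0.0455% and 0.0248% of all genes. A single cortex array leaves no cortex spread of its own, and the fit takes it to vary like the other groups. The excess over genes of like brightness was 0.14, 0.14 and 0.15, with 37, 38 and 38 members above their band. All 9 primordium arrays were above cortex repetition 1 for 24 members, as for 14.8% of all genes. Cortex repetitions 2 and 3 averaged less than repetition 1 for 40 of the 49 members, with a median difference of -0.35, and for 22 of the 23 ribosomal proteins (-0.48). Of all 24160 genes 10333 were lower in this way, and the median difference over all genes was 0.06.

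Scaling the arrays to a common distribution reduced the calls. After quantile normalization 1, 3 and 1 members rose (0.981%, 1.21% and 0.650% of all genes), namely RPS26 at the early stage, RPS26, 60SP0 and OsPAE1 at the intermediate stage, and OsPAE1 at the late stage. After cyclic loess 2, 3 and 1 rose (0.679%, 0.964% and 0.472% of all genes), with RPS27AB added at the early stage. The median change of the members became 0.32, 0.32 and 0.30 after quantile normalization and 0.23, 0.28 and 0.21 after cyclic loess, and that of all genes stayed within 0.02 of 0. The brightest members then turned: after cyclic loess RPS21 differed from cortex by -0.80, -0.93 and -1.05 and RPL39C by -0.26, -0.29 and -0.43, none of them called.

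**Figure D4:**
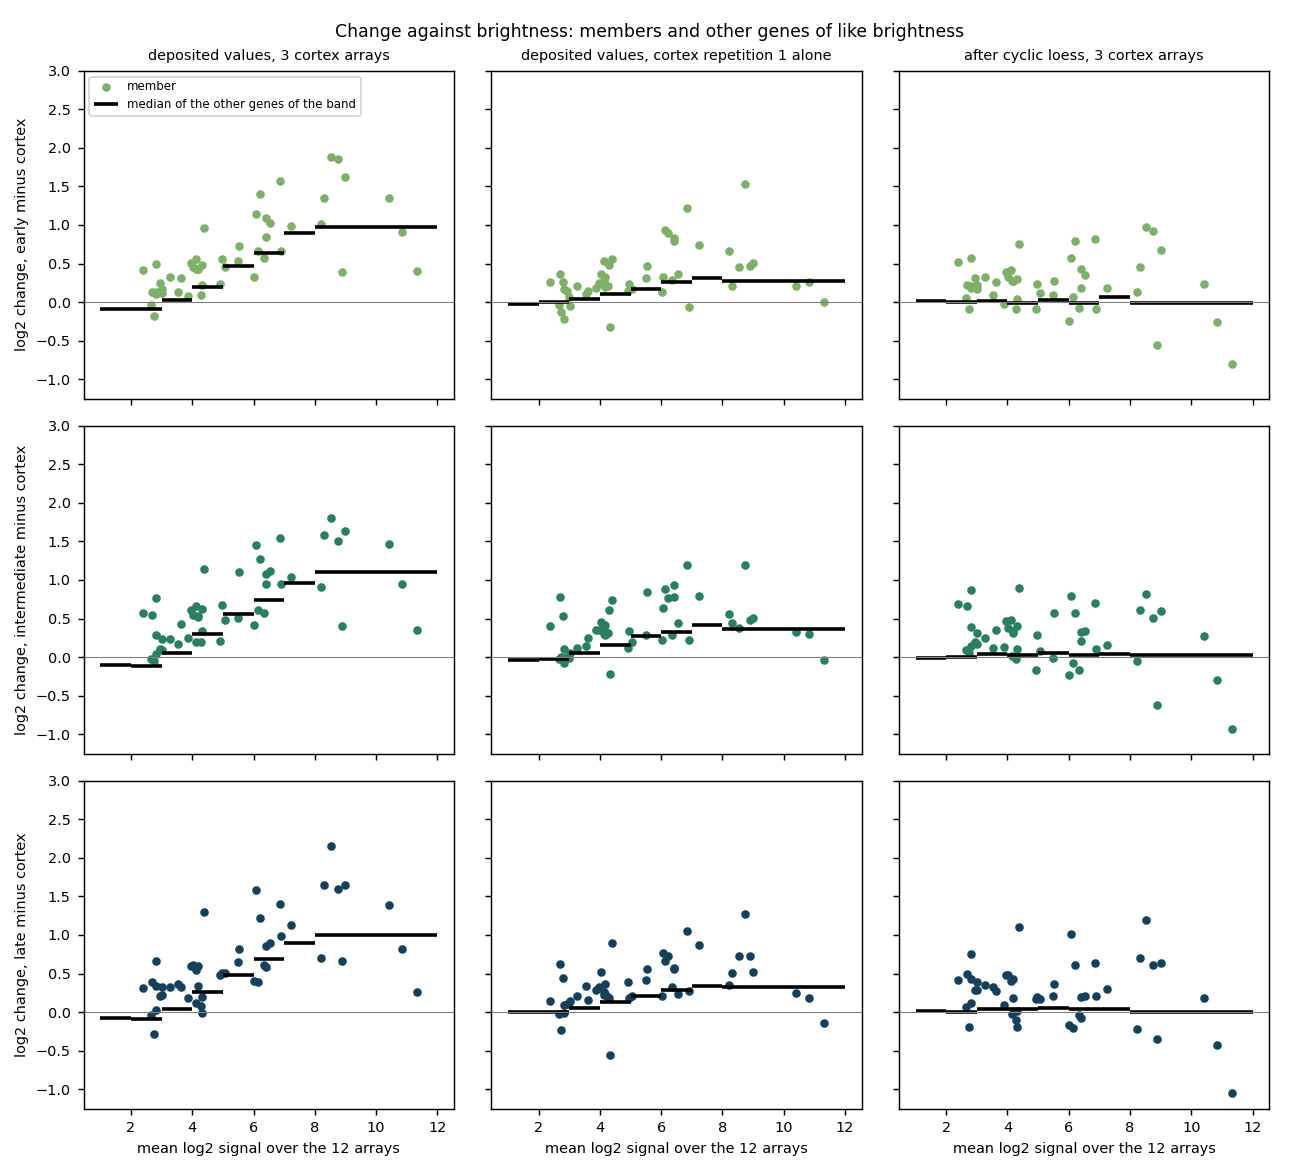
Log2 change against cortex (vertical axis) and mean log2 signal over the 12 arrays (horizontal axis) of the 49 members, with the median of all other genes in bands of 1 log2 unit as black bars (the last runs from 8 upward). Rows are the stages, and columns the deposited values against 3 cortex arrays, against cortex repetition 1 alone, and after cyclic loess. The bars climb to about 1 in the first column, to under 0.5 in the second and lie near 0 in the third, and most members lie above them in each.

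Ranks within an array do not depend on its scale. By percentile among all genes on the same array, every array of the stage lay above every cortex array for 17, 14 and 17 members in early, intermediate and late primordia, against 12.2%, 15.0% and 13.3% of all genes. All 9 primordium arrays ranked above all 3 cortex arrays for 9 members (5.20% of all genes): 60SP0, RPL7A-1, RPL39B, RPS26, eIF-4A-1, eIF-4A-3, eIF4G, OsPAE1 and RPT1B. The median ribosomal protein stood at the 96.5th to 97.7th percentile on the primordium arrays, against the 96.4th, 96.5th and 96.8th on cortex repetitions 1, 2 and 3. The median proteasome subunit stood at the 84.6th to 89.5th percentile, against the 81.7th, 80.2nd and 85.6th in cortex, and the median initiation factor at the 73.2nd to 78.4th, against the 73.0th, 68.2nd and 57.7th. OsPAE1 stood at the 86.6th to 91.4th percentile on the primordium arrays, against the 52.0th to 81.1st in cortex. RPS27AA, by contrast, ranked at the 99.4th to 99.7th percentile in primordia and the 99.5th to 99.8th in cortex.

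The distance of the ribosomal proteins from the other 2 classes varied less among the 9 primordium arrays than among the 3 cortex arrays. The mean signal of the 23 ribosomal proteins exceeded that of the 17 proteasome subunits by 1.94 to 1.99 in early, 1.96 to 2.04 in intermediate and 2.07 to 2.13 log2 units in late CR primordia, against 2.01, 1.55 and 1.5 on cortex repetitions 1, 2 and 3. Their mean exceeded that of the initiation factors by 2.89 to 3.22 on the primordium arrays, against 2.95, 2.35 and 2.48 in cortex. Cortex repetition 1 thus fell among or beside the primordium arrays and repetitions 2 and 3 below them, as they did in the 98th percentile of all genes.

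No member was called in a comparison between stages. limma called 0 of the 49 members, and 0% of all genes, in any of the 3 comparisons of stages. An unadjusted p under 0.05 was reached by 0 members in each. Of all genes, 6.2% reached it in late minus early, 3.14% in intermediate minus early and 2.48% in late minus intermediate. Late minus early ranged from -0.31 to 0.44 over members, with a median of 0.02, and the standard error of such a difference was 0.20 in the median. The largest was that of RPS10-1 (0.44, SE 0.43, adjusted p = 0.965), followed by OsPAE1 (0.34, SE 0.22, adjusted p = 0.897) and RPS15 (0.33, SE 0.30). OsPAA1 (-0.31), OsPBC1 (-0.30) and eIF4E-1 (-0.29) had the lowest. These values do not show that the stages were alike.

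Several members form pairs by a shared symbol stem. Their sequences were not compared, and the probe sets of such a pair may each detect the RNA of the other, so that which gene changed is uncertain. The log2 difference within a pair on the same array was compared with cortex for 7 pairs, in 21 two-sided exact permutation tests. These cannot give a p under 0.10 with 3 arrays against 3. They treat the arrays as unpaired, although arrays with the same repetition number came from the same plants. RPS27AB minus RPS27AA was 0.08, 0.77 and 0.43 in early, 0.18, 0.11 and -0.05 in intermediate and -0.17, 0.01 and -0.10 in late CR primordia, against -0.63, -1.59 and -0.86 in cortex. The groups did not overlap at any stage (exact permutation p = 0.10 each, adjusted p = 0.233). The differences from cortex were 1.45, 1.11 and 0.94. RPL7A-1 minus RPL7A-2 (0.41) and eIF-4A-1 minus eIF-4A-3 (0.68) lay apart from cortex at the intermediate stage with the same p, and eIF-4A-1 minus eIF-4A-3 also at the late stage (0.49). The pairs of RPL39B with RPL39C and of EIF4A3B with EIF4A3A hold a probe set near the top or the bottom of the scale, and nothing is read from their differences. The pairs RPT1B minus RPT1A (0.43, 0.11 and 0.15) and RPS10-1 minus RPS10-2 (0.69, 0.97 and 1.08) overlapped with cortex at each stage.

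Other genes of protein synthesis and turnover with a symbol were few. The elongation factor EF-1-beta differed from cortex by 0.41, 0.70 and 0.69 and did not pass. Of 3 aminoacyl-tRNA synthetases (LysRS, HisRS and MetRS), which load amino acids onto tRNA, 0 rose, with medians of 0.48, 0.53 and 0.41, and of 2 genes of the TOR growth kinase (OsTOR and LST8) 0 rose, with medians of 0.27, 0.44 and 0.36. Of 7 ubiquitin, ubiquitin-like and ubiquitin-conjugating genes 0 rose and 0 fell, with medians of 0.39, 0.12 and 0.22 and 6, 5 and 4 genes above 0. Their largest changes were those of UBQ1, also listed as Ub-CEP52-1, at 1.73, 1.98 and 2.01. UBQ2, also listed as Ub-CEP52-2, had 0.08, 0.12 and 0.22. Of 3 genes with lower-case ribosomal symbols (rps14, rpl5 and rpl12-2) 1 rose, at the intermediate stage by 1.39. It is listed as rps14 and also as sdhB, a subunit of succinate dehydrogenase, so its probe set need not report a ribosomal protein, and the others were below 0 at each stage. Of 16 markers of dividing cells, most of them H2B histone genes, 4, 4 and 0 rose against cortex in early, intermediate and late primordia. These were H2B.2, H2B.3, H2B.6 and CDKB2;1 at the early stage, and H2B.3, H2B.6, CYCB2-1 and CDKB2;1 at the intermediate stage. The mean signal of the 16 markers was 6.01 to 6.24, 5.78 to 6.14 and 5.33 to 6.01, against 5.12 to 5.46 in cortex. The 3 cellulose synthase genes of secondary walls and the sucrose transporter gene OsSUT1, markers of xylem and phloem, had no call and mean signals of 2.59 to 2.77 and 2.18 to 2.64 in primordia, against 2.72 to 3.31 and 2.48 to 2.79 in cortex. The part of dividing cells, of green tissue and of the lower bright values of cortex repetitions 2 and 3 in the members' changes was not tested.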

How the data were processed

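Each array was deposited as a column of log2 signals, with a value for every probe set, which the authors had background-corrected, normalized and summarized. Their paper gives RMA, run in Transcriptome Analysis Console software, as the method. The submitters' processing notes list GCRMA with Affymetrix Expression Console instead. The values do not settle the choice. Scans were not used here, and precision is limited by having 3 arrays a group. Log2 changes of dim probe sets are compressed, and signals were not compared between genes as amounts of RNA.

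The table holds 36643 probe sets. Through the array annotation and the RefSeq gene table, 24161 had 1 gene, 90 several and 12392 none. Probe sets with several genes were left out, and a gene was represented by its brightest probe set, although each member had 1. Group means over the 12 arrays were estimated by limma (3.58.1, R 4.3.3) with eBayes moderation, and p-values were adjusted over the 24161 probe sets with 1 gene. The fit has no block, since the study's methods name none. The paper's account that 2 stem bases gave all 4 tissues of a repetition pairs the arrays. Of 18 same-numbered pairs, 7 had a correlation of deviations from the group means above 0.1 (range -0.315 to 0.355, mean 0.051). The fit with the replicate block called 7, 17 and 10 members higher at the early, intermediate and late stage (2.12%, 3.47% and 1.73% of all genes).

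The members and gene lists were chosen with earlier results of these data known. Members were named in the text by rule (the 2 brightest of each role, the 6 highest and 6 lowest mean changes, the 3 highest and 3 lowest of late minus early, the 3 smallest adjusted p per stage, and their paralogs), and the others that were called, with eIF4G, RPL3, RPL18, OsRPN7 and the genes of other lists, were chosen after their values were seen. Lists that need gene descriptions (other ribosomal, initiation, biogenesis and proteasome genes) were not analysed here. Band comparisons and ranks used the 24160 genes. Alternatives were other thresholds, filters, normalizations, priors and array weights, the cortex arrays used, and leaving out each array.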

Additional observations from a re-analysis of the deposited data

How the results depend on the processing

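The count of members lower than cortex and that of members differing between stages were 0 under every alternative run, and the median change stayed above 0. The counts of members higher than cortex (5, 12 and 7 in early, intermediate and late primordia) were less stable. They were 14 and 20 at the study's thresholds (early and late, 4.64% and 4.42% of all genes). With only the 6 arrays compared they were 0, 0 and 0, where 2, 1 and 0 of all 24160 genes were called higher. In that limma fit 25, 30 and 26 members were higher at an unadjusted p under 0.05. Of all genes 3664, 5147 and 4326 had such a p, in either direction. The counts called were 2, 5 and 4 with an intensity trend (0.923%, 1.73% and 0.666% of all genes). With array weights they were 13 and 14 (early and late, 3.61% and 2.73%). They were 1, 3 and 1 after quantile normalization, 2, 3 and 1 after cyclic loess, and 1, 1 and 1 with cortex repetition 1 alone. The median change moved to 0.319 and 0.298 (intermediate and late) after quantile normalization, to 0.231, 0.278 and 0.213 after cyclic loess, and to 0.353 and 0.287 (intermediate and late) against cortex repetition 1. By percentile rank, an alternative chosen after seeing the data, 17, 14 and 17 members lay clear of cortex in place of 26, 29 and 27. Leaving out arrays gave 0 to 23, 0 to 25 and 0 to 21 members. The zeros came without repetition 2 or repetition 3 of all groups, which leaves 2 arrays a group. Of all genes 0, 0 and 0 were called higher without repetition 2, and 9, 4 and 1 without repetition 3. Zeros also came without intermediate repetition 1 at that stage (10 of all genes called higher). The same held without late repetition 1 or 2 at that stage (11 and 18 of all genes). The highest counts came without cortex repetition 1 (5.51%, 7.87% and 6.40% of all genes). The fit with the replicate block gave 7, 17 and 10 (2.12%, 3.47% and 1.73% of all genes). Of the 24 calls of member and stage it lost 2, RPL27 early and RPS27AA late, each at an adjusted p of 0.0507, and it gained 12: RPS10-1 and RPL3 at each stage, OsPBC1 at the early and intermediate, RPS7 and RPL39B at the intermediate and 60SP0 and OsPBD1 at the late stage.

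Called changes that turned were RPL39C at the intermediate stage after cyclic loess (-0.291) and RPS27AA at the late stage after quantile normalization (-0.429) and cyclic loess (-0.348). The cause was not tested. Of the 24 calls, 5 were kept after quantile normalization, 6 after cyclic loess, 7 without cortex repetition 2, 8 without cortex repetition 3 and 24 without cortex repetition 1.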
